A study of Mus musculus with 2 samples.

Results

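Genes that move calcium in striated muscle were compared between stretched and non-stretched mouse skin. The set holds 10 genes chosen by name, Atp2a1, Atp2a2, Sln, Pln, Casq1, Casq2, Ryr1, Pvalb, Cacna1s and Jph2, and all 10 are among the 24421 gene symbols of the count table. The table holds 1 library of whole-layer skin under 33% strain for 5 days and 1 library of skin at day 5 without strain, both from wild type C57BL6/J mice. The methods give female mice of 8 weeks in telogen, and describe the skin strain as an initial value that was raised each day. The labels do not say whether the control wore the unstrained device or whether a library held 1 mouse or several. With 1 library per condition there is no replicate check and no p-value, and every interval is a 95% interval that covers counting error only.

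Whole-layer back skin of the mouse carries a thin sheet of skeletal muscle under the fat. In a muscle fibre, the membrane's voltage sensor opens the calcium release channel of the sarcoplasmic reticulum, the internal calcium store, and the fibre contracts. Pumps of the SERCA family return the calcium to the store, where calsequestrin binds it, and soluble buffers lower it in the cytoplasm. Fast and slow fibres build this cycle from partly different members of the same families. Atp2a1 (SERCA1), Casq1 and the buffer Pvalb are grouped here as fast forms. Atp2a2 (SERCA2), Casq2 and the pump inhibitor Pln are grouped as forms of slow fibres and heart. Casq1 is not confined to fast fibres, so the Casq1 to Casq2 ratio is not a measure of fibre type alone. Atp2a2 also serves cells outside muscle, such as keratinocytes.

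Among these calcium genes the fast forms were lower in stretched skin, and the slow or cardiac forms Atp2a2 and Casq2 were higher. Pln, grouped with these slow or cardiac forms, had only 16 and 7 counts. Its log2 value was -0.91 with an interval that included 0 (-2.44 to 0.45). Pvalb, the cytoplasmic calcium buffer, fell 4.31-fold and Atp2a1, the fast pump, fell 2.56-fold, whereas Casq2, the cardiac and slow calsequestrin, rose 3.04-fold. Atp2a2 and the pump inhibitor Sln were higher by less than 2-fold, and Casq1 was lower by less than 2-fold. The junction genes Cacna1s, Ryr1 and Jph2, which both fibre types use, went both ways and none passed 2-fold. The myosins of the same libraries did not divide in the same way, with log2 values of -4.57 for Myh4, 1.10 for Myh1 and 1.46 for Myh2, all of fast fibres, and -2.75 for the slow Myh7 (106 and 13 counts). Genes of developing muscle were higher beside them, with a median of 3.96, and their part in the calcium genes was not tested. In bulk tissue such as this, fewer cells of a type and less RNA per cell cannot be told apart.

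The coding sequences of Sln and Pln are shown because these small membrane proteins act on the same pump, and because Sln was measured well and Pln hardly at all. Each was read from the GENCODE M21 transcript, 5′ to 3′, with the start and stop codons in capitals. Sln has a coding length of 96 bases in 1 stretch of chr9:53853473-53853568 and Pln has 159 bases in chr10:53343864-53344022, both on the plus strand of mm10.
Sln: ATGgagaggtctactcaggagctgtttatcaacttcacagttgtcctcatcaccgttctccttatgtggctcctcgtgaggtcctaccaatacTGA
Pln: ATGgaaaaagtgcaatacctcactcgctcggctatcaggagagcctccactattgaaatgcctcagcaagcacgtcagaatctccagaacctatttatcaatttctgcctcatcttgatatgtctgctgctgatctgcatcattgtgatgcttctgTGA
Aligned end to end, 72 of the 96 paired bases were identical, and the longest identical run was 8 bases. The fast and slow pump genes Atp2a1 and Atp2a2 had 2237 identical bases among 2982 paired coding bases, with a longest identical run of 44 bases. For Casq1 and Casq2 the identity was 69.1% over 1173 bases and the longest run was 25 bases. No stretch of 76 bases, the full read length, was shared between any members. The study kept filtered reads longer than 35 bases, so a shortened read could lie within the run of 44 bases that Atp2a1 and Atp2a2 share.

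The promoters of Atp2a1, Casq1 and Casq2 are shown because the forms grouped as fast and as slow or cardiac changed in opposite directions. They are the RefSeq windows of build GRCm38.p6, from 250 bases before to 50 after the gene start, given 5′ to 3′ along the gene. CAGCTG, a form of the E-box bound by myogenic factors that reads the same on both strands, and TATAAA on either strand were searched. Capitals mark CAGCTG, and the Casq2 window has none. The Atp2a1 window is chr7:126463024-126463323 on the minus strand, the Casq1 window is chr1:172219846-172220145 on the minus strand, and the Casq2 window is chr3:102086165-102086464 on the plus strand.
Atp2a1: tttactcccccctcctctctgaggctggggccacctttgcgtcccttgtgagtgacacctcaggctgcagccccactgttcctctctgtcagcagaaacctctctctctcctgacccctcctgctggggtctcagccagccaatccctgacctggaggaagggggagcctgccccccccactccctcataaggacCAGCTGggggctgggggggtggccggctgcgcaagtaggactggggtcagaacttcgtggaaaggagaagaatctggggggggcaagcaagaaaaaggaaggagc
Casq1: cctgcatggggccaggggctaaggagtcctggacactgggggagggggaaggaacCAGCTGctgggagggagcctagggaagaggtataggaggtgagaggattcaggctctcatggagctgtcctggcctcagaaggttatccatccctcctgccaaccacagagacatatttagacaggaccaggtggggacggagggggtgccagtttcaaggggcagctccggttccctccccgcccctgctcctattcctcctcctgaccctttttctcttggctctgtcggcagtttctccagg
Casq2: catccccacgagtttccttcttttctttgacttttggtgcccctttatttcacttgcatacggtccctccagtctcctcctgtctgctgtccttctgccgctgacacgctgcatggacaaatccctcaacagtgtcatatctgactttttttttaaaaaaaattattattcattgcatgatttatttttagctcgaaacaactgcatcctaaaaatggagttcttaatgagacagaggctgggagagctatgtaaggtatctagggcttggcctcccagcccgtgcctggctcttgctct
The table of promoters held 8 of the 10 members, all but Sln and Atp2a2. CAGCTG was found in the windows of Atp2a1, Casq1, Cacna1s, Jph2 and Pln, and was not found in those of Casq2, Pvalb and Ryr1. Of all 32851 promoter windows, 16.3% hold it. TATAAA was found only in the window of Pln among these 8 genes and in 13.6% of all windows. These matches are a description of the letters and not of bound factors.

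The libraries held 14152379 counts (control) and 11648655 counts (stretched), so that 3 counts, the floor used here, were 0.212 and 0.258 CPM (counts scaled to a common library total). Changes are ratios of CPM on the log2 scale, and levels are compared between genes as FPKM (CPM divided by exon length in kilobases). The thresholds were those of the study, a product of FPKM values (EV) above 10 and a change of at least 2-fold. The study applied them to FPKM from Cufflinks, whereas FPKM was computed here from the raw counts. The numbers of called genes therefore differ from those of the study. The methods state no pseudocount, and 1 was added here to each FPKM. By this rule 285 genes (2.61% of the 10902 tested) were upregulated and 265 (2.43%) were downregulated. With nothing added, 9675 genes were tested, 285 were upregulated and 276 downregulated, and the called members were the same. Scaling to the muscle genes described further on gave 373 and 212. Over the 16255 genes that exceeded 3 counts in either library, the median log2 change was -0.12, and the other scalings added between 0.06 and 0.15 to every value.

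By these thresholds 1 member, Casq2, was upregulated, and 2 members, Atp2a1 and Pvalb, were downregulated. The other 6 tested members were not called, and Pln did not pass the EV filter. The counting interval lay above 0 for 4 members (Casq2, Sln, Atp2a2 and Cacna1s), below 0 for 5 (Pvalb, Atp2a1, Jph2, Casq1 and Ryr1) and included 0 for Pln. Over all genes above the floor, 17.8% of intervals lay above 0 and 33.3% below it. The median log2 fold change of the 10 members was -0.69, or -0.50 without Pln and -0.45 with 1 CPM added to both values.

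**Figure D1:**
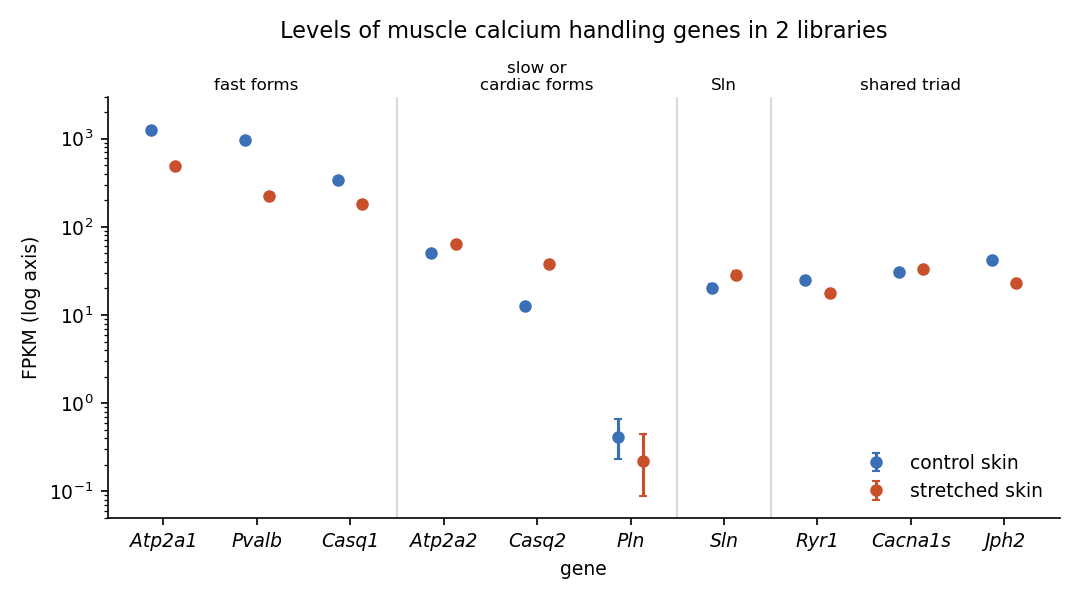
FPKM of the 10 genes on a log axis in control skin (blue) and stretched skin (orange), 1 library each, with exact Poisson 95% intervals of the counts. Atp2a1 and Pvalb stand highest in both libraries and lower in stretched skin (from 1265 to 494 and from 975 to 226), Casq2 is higher in stretched skin (12.6 to 38.3), and Pln stays below 1.

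In control skin the levels ran from Atp2a1 through Pvalb, Casq1, Atp2a2, Jph2, Cacna1s, Ryr1, Sln and Casq2 down to Pln. In stretched skin the first 4 places and the last were held by the same genes. Between them Casq2 moved from the 9th to the 5th place and Jph2 from the 5th to the 8th. No neighbours in either order had overlapping Poisson intervals, but this says nothing of the spread between mice. The 10 genes together took 0.7355% of all counts without stretch and 0.354% with it. Atp2a1 alone made up 59.8% of their counts without stretch and 48.6% with it.

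The voltage sensor and the release channel, where the cycle starts, differed little and in opposite directions. Cacna1s encodes the pore and sensor of the T-tubule calcium channel and is annotated at positions 136052750 to 136119822 of chromosome 1 in mm10. Its counts were 2831 without stretch (30.5 FPKM) and 2545 with it (33.4 FPKM), a log2 change of 0.13 (interval 0.05 to 0.20). Ryr1, the ryanodine receptor through which the store empties, lies on chromosome 7 from 29003344 to 29125179. It had 7643 counts (24.7 FPKM) and 4463 counts (17.5 FPKM), a log2 change of -0.50 (interval -0.55 to -0.44). The sensor was therefore slightly higher and the channel lower, and the Ryr1 to Cacna1s ratio changed by -0.62 on the log2 scale (interval -0.72 to -0.53). Of the exonic bases of Cacna1s, 19.98% overlap Gm37759 on the opposite strand, and the counter's use of strand is not given in the sources used here. Jph2, junctophilin, ties the store's membrane to the T-tubule and lies on chromosome 2 from 163336242 to 163397993. Its counts were 2528 without stretch (42.0 FPKM) and 1128 with it (22.8 FPKM), a log2 change of -0.88 (interval -0.99 to -0.78).

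Calsequestrin, the calcium binding protein inside the store, showed a wide split between its forms. Casq1 lies on chromosome 1 from 172209894 to 172219868 with 9290 counts (336 FPKM) in the control library. Under stretch it had 4161 counts (183 FPKM), a log2 change of -0.88 (interval -0.93 to -0.83). Casq2 lies on chromosome 3 from 102086415 to 102146514 and rose from 488 counts (12.6 FPKM) to 1220 counts (38.3 FPKM). Its log2 fold change was 1.60 (interval 1.45 to 1.76), and 121 of the 10902 tested genes had a higher value. Casq1 remained the more abundant form per length in both libraries. Its FPKM was 26.7 times that of Casq2 in control skin and 4.78 times in stretched skin, and the ratio changed by -2.48 on the log2 scale (interval -2.64 to -2.32). Gm17224 on the opposite strand overlaps 7.996% of the exonic bases of Casq1. Casq2 overlaps no other gene's exons and shared no stretch of 76 bases with another gene.

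The pumps that refill the store split in the same direction as the calsequestrins, with a smaller change of the ratio. Atp2a1 lies on chromosome 7 from 126445858 to 126463108 and was the most abundant member in both libraries. It fell from 62233 counts (1265 FPKM) to 19998 counts (494 FPKM), a log2 change of -1.36 (interval -1.38 to -1.33). By level it ranked 15th among all genes in control skin and 58th in stretched skin. Rabep2 on the opposite strand overlaps 21.9% of its exonic bases. Atp2a2 lies on chromosome 5 from 122453513 to 122502225, with 4309 counts (50.1 FPKM) in control skin and 4482 (63.3 FPKM) in stretched skin. Its log2 fold change was 0.34 (interval 0.28 to 0.40). The fast pump stood 25.3 times above the slow pump per length in control skin and 7.80 times above it in stretched skin, a change of the ratio by -1.69 on the log2 scale (interval -1.76 to -1.63). The counts of both pumps together were lower in stretched skin, with a log2 change of -1.16 (interval -1.18 to -1.14). What part of the Atp2a2 counts came from muscle was not tested.

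The inhibitors of the pump were less abundant than either pump. Sln, sarcolipin, is known from slow, atrial and neonatal muscle and lies on chromosome 9 from 53850164 to 53854560. Its counts were 381 without stretch (20.4 FPKM) and 435 with it (28.3 FPKM), a log2 change of 0.47 (interval 0.27 to 0.67). Set against the fast pump, the ratio of Sln to Atp2a1 was 3.55 times higher in stretched skin (log2 change 1.83, interval 1.63 to 2.03). Against Atp2a2 the change was 0.13 with an interval that included 0 (-0.08 to 0.35). Pln, phospholamban, lies on chromosome 10 from 53337667 to 53345987 and gave only 16 counts without stretch and 7 with it. No difference of Pln was detectable at this depth (log2 fold change -0.91, interval -2.44 to 0.45), and 64.7% of its exonic bases overlap Cep85l and Gm47644 on the opposite strand. Its level was 0.410 FPKM in control skin and 0.218 FPKM with stretch, the lowest of the members in both libraries.

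Pvalb, parvalbumin, binds calcium in the cytoplasm of fast fibres and speeds their relaxation. It lies on chromosome 15 from 78191114 to 78206400 and overlaps no other gene's exons. It fell from 14367 counts (975 FPKM) to 2745 counts (226 FPKM). Its log2 change, -2.11 (interval -2.17 to -2.05), was the lowest among the members. Of the 10902 tested genes, 127 had a lower value. It also fell against the fast pump, with a change of the Pvalb to Atp2a1 ratio by -0.75 on the log2 scale (interval -0.81 to -0.69). Some neurons express Pvalb too, and all 6 neuron markers (Rbfox3, Snap25, Syt1, Gad1, Slc17a6 and Nefl) had 3 counts or fewer in both libraries.

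**Figure D2:**
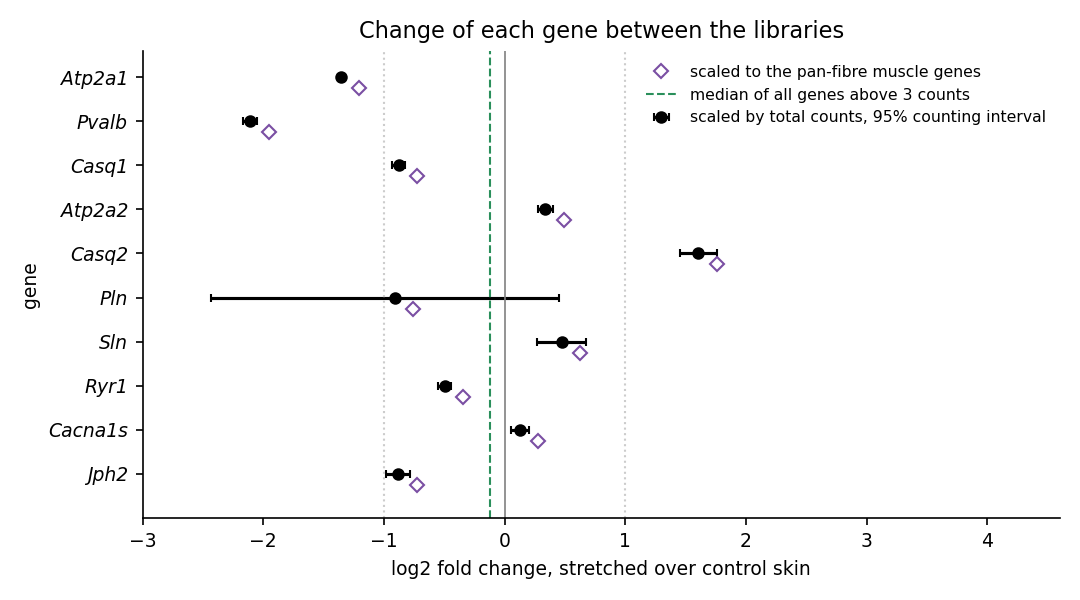
Log2 fold change of each gene, stretched over control skin, scaled by total counts (black, 95% counting intervals) and scaled to the pan-fibre muscle genes (open diamonds); the dashed line is the median of all genes and the dotted lines mark 2-fold. Pvalb (-2.11) and Atp2a1 (-1.36) lie below and Casq2 (1.60) above the 2-fold lines under both scalings.

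The amount of muscle RNA in each library was set beside these values with 10 genes that fast and slow fibres share (pan-fibre genes). Their summed level was 18250 CPM in control skin and 16410 CPM in stretched skin, and their median log2 fold change was -0.18, or between -0.11 and -0.060 under the scalings that do not use these genes. They did not move as a block, with Ckm, the muscle creatine kinase, lowest at -1.05 and Mb, myoglobin, highest at 1.09. Their sum leans on the genes with the most counts, Acta1 (127849 and 100096) and Ckm (50821 and 20271). The log2 change of Acta1 was -0.07, and the fall of Ckm is part of this scaling. With the libraries scaled to the sum of these genes, Atp2a1 was at -1.20, Pvalb at -1.95 and Casq1 at -0.72. On the same scale Casq2 was at 1.76, Atp2a2 at 0.49, Sln at 0.63, Cacna1s at 0.28, Ryr1 at -0.34 and Jph2 at -0.73. The calls of the members were the same genes on this scale.

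Other tissues could also hold some of these transcripts. Smooth muscle of vessels and hair follicles expresses Pln, Casq2 and Jph2, and its 8 markers had a summed level of 920 CPM in control skin and 934 CPM in stretched skin, with values from -0.58 (Smtn) to 0.65 (Cnn1). Of the 6 heart markers, Myl7 and Bmp10 were at 0 in both libraries. Myh6 had 3 and 4 counts, Nppa 0 and 1, Tnni3 10 and 14, and Nppb 17 and 19. The 5 keratinocyte markers, which include Krt5 and Krt14, summed to 14090 and 14910 CPM, with values from -0.49 (Trp63) to 0.28 (Krt14). The 5 fibroblast markers summed to 25670 and 48470 CPM, mostly Col1a1 and Col1a2, with values from 0.18 (Pdgfra) to 1.003 (Col1a1). The 4 macrophage markers summed to 242 and 544 CPM, with values from 0.80 (Cd163) to 1.56 (Adgre1). The 5 adipocyte markers summed to 543 and 314 CPM, with Ucp1 at 0 in both libraries and the others from -0.84 (Plin1) to -0.77 (Adipoq). The part of these cells in the members' values was not tested.

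**Figure D3:**
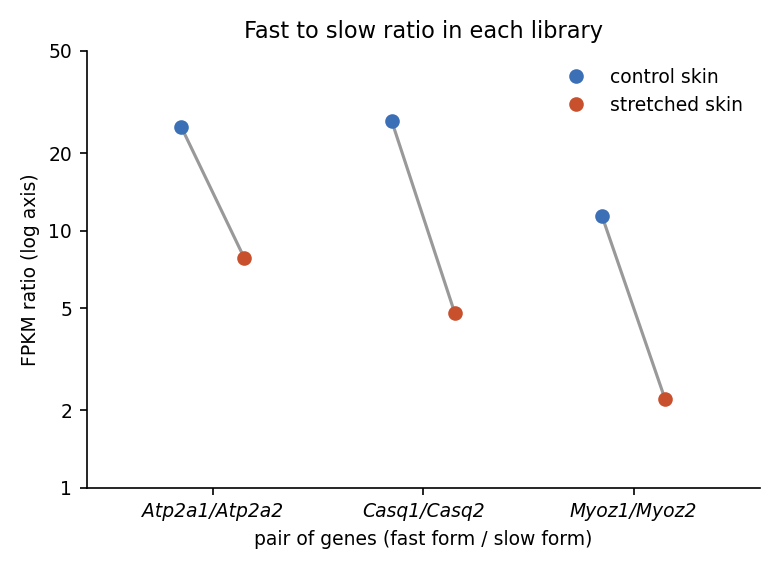
Ratio of FPKM of the form grouped as fast to the form grouped as slow on a log axis in control skin (blue) and stretched skin (orange), 1 library each. The ratio is lower in stretched skin for the pumps (25.3 and 7.80), the calsequestrins (26.7 and 4.78) and the calsarcins (11.4 and 2.21).

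Among 49 further genes of calcium handling, 48 are in the table, 39 passed the EV filter and 2 were upregulated, while none was downregulated. The intervals lay above 0 for 16, below 0 for 17 and included 0 for 15, and the median log2 fold change was -0.04, which turned to between 0.02 and 0.11 under the other scalings. Cacng1, a subunit of the voltage sensor, rose from 614 counts to 1232 (1.29, interval 1.14 to 1.43). The other called gene was Myoz2, calsarcin of slow fibres and heart, which tethers the calcium-dependent phosphatase calcineurin to the Z-disc. It rose from 602 counts to 1382 (1.48, interval 1.34 to 1.62), whereas Myoz1, the fast calsarcin, gave 3790 counts without stretch and 1688 with it (-0.89, interval -0.97 to -0.80). The Myoz1 to Myoz2 ratio changed by -2.37 on the log2 scale (interval -2.53 to -2.20). Camk2b, a calcium-dependent kinase, had 663 and 1104 counts (1.02, interval 0.88 to 1.16) and missed the threshold only because 1 was added to each FPKM, since its fold without it was 2.02. No group of this list had a median as far from 0 as the members. The 5 genes of the T-tubule and membrane had a median of 0.29 with 3 intervals above 0, and the 3 genes of store-operated entry had a median of 0.20. The 3 genes of the mitochondrial uniporter had a median of 0.24, and the 12 calcium sensors and calcineurin genes, which include Myoz1 and Myoz2, had a median of -0.04. The 8 measured pumps and micropeptides had a median of -0.17, with 2 intervals above 0, 2 below and 4 that included it.

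The 12 further release and junction genes had a median of -0.14 and none was called. Scaled by total counts, 7 of the 12 intervals lay below 0 and none above it. Over all genes above the floor, 33.3% lay below 0 and 17.8% above it, with a median log2 change of -0.12. Scaled to the pan-fibre genes, 4 of the 12 intervals lay below 0 and 2 above it. Those above it were of Fkbp1a and Tmem38b, which were named after their values were seen. Trdn, triadin, which links calsequestrin to the channel, had 2134 and 1312 counts (-0.42, interval -0.52 to -0.32). Jph1, the skeletal junctophilin, had 676 and 472 counts (-0.24, interval -0.41 to -0.07). Hrc, a binding protein of the store, had 1802 and 1215 counts (-0.29), and Srl, sarcalumenin, had 6496 and 4835 counts (-0.15). The other release channels were rare, with 11 and 11 counts for Ryr2 and 14 and 12 counts for Ryr3. Stac3, which couples the voltage sensor to the release channel, had 684 and 364 counts (-0.63, interval -0.82 to -0.44), and Cacnb1, the beta subunit, had 988 and 943 counts (0.21, interval 0.08 to 0.34). Subunits of the voltage sensor thus went both ways, with Cacng1 and Stac3 at the ends. Mrln, a further small pump inhibitor of skeletal muscle, had 41 and 23 counts, a difference within counting error (-0.55, interval -1.36 to 0.22). Atp2a3, the pump of non-muscle cells, had 335 and 344 counts (0.32, interval 0.10 to 0.54).

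The contractile genes of fast and slow fibres gave the calcium genes a comparison within the same libraries. Beside their counts stand the shares over all genes, 17.8% of intervals above 0 and 33.3% below it. Of all tested genes, 2.61% were upregulated and 2.43% downregulated. The 10 fast sarcomere genes had a median log2 change of -0.44, with 8 intervals below 0 and 2 above, 2 genes downregulated and 2 upregulated. Myh4, the fastest myosin, was lowest at -4.57 (91029 and 3156 counts), and Myh2, the myosin of fast oxidative fibres, was highest at 1.46 (7178 and 16239 counts). The 9 slow sarcomere genes had a median of 0.28, or 0.54 over those with at least 20 counts in both libraries together, with 5 intervals above 0 and 3 genes upregulated, and ranged from Myl2 at the bottom to Tnni1 at 4.77 (47 and 1055 counts). Myh7, the slow and cardiac myosin, gave 106 counts without stretch and 13 with it (-2.75, interval -3.70 to -1.91), with 13.3% of its exonic bases overlapped by genes on the opposite strand, and Myl2 had 25 and 1. With the floor of 3 counts in place of the 1, the log2 value of Myl2 was -2.78, which is a bound. The upregulated slow genes beside Tnni1 were the troponins Tnnc1 at 3.87 (19 and 229 counts) and Tnnt1 at 2.40 (88 and 381 counts). Mybpc1 at 0.79 and Tpm3 at 0.28 had intervals above 0 without a call, and these 4 genes were also named after their values were seen. The 10 genes of developing muscle, which were known to be higher when the list was written, had a median of 3.96 and 9 upregulated genes, from Myod1 at 1.24 to Myh3 at 6.58.

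**Figure D4:**
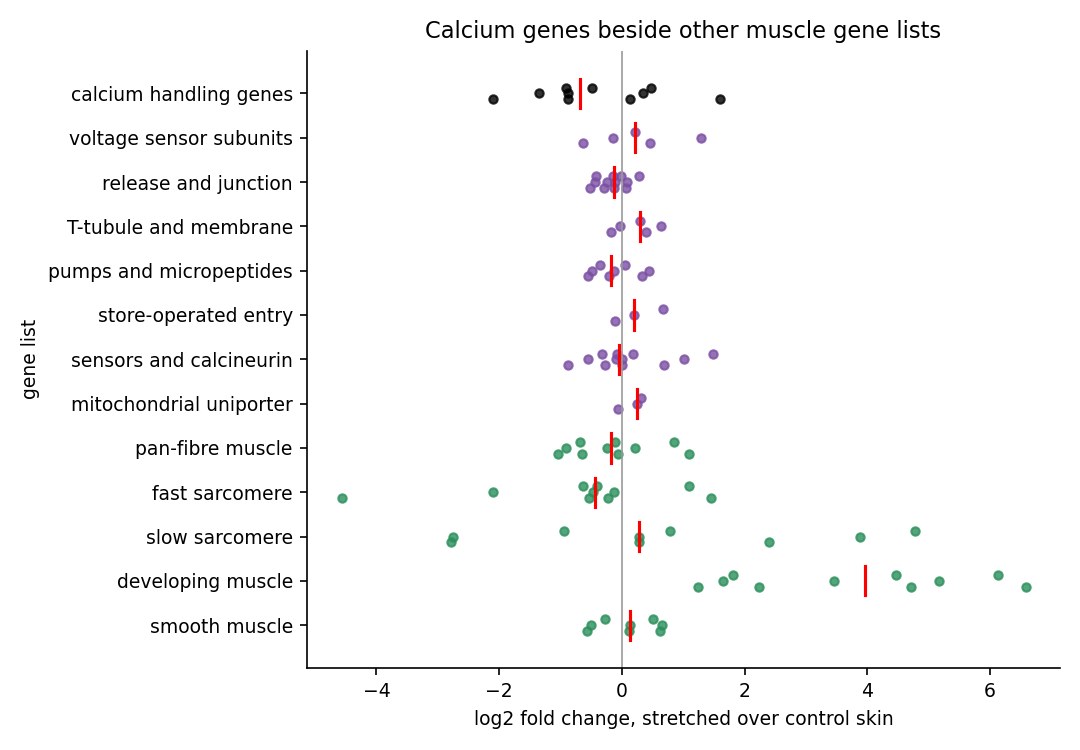
Log2 fold change, stretched over control skin, of each gene (points) by list, with the median of the list as a red bar; purple rows are the groups of further calcium genes and green rows other muscle lists. The calcium handling genes spread from -2.11 to 1.60 around -0.69, wider than the release and junction genes around -0.14, and the fast and slow sarcomere lists spread to both sides of 0.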

How the data were processed

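RNA of whole-layer skin was sequenced as 76-base reads. According to the methods, reads were filtered (Phred score of at least 20, over 35 bases) and aligned to mm10 with TopHat2, which the submitters' processing notes also name. The authors deposited raw counts of reads per gene symbol. The methods name Cufflinks for transcript assembly, abundances and normalization, but not the tool that made these raw counts. How reads were assigned to genes, with which annotation and with or without strand, is not given in the sources used here. For exon lengths, table symbols were looked up in GENCODE M21 by name (23376) or synonym (661), and 384 had no exon length. FPKM was computed here from the counts, the library total and the union of exons. The 1 added to each FPKM for calls was chosen here. Counts of 3 or fewer were set to 3 in ratios. Intervals are Clopper-Pearson for ratios of CPM, exact Poisson for FPKM and exact conditional for ratios between genes. Median values of lists carry no test. The members and lists were chosen with earlier results of these data known. All members, pathway genes whose summed count was at least 100 and that had a change of at least 2-fold, fixed partner genes, and the highest and lowest gene of each list are named. Strit1 was not analysed here. Calls and intervals were checked on simulated data with counting error only, so this check says nothing of the spread between mice. Alternatives used edgeR 4.0.16 and DESeq2 1.42.0 for scaling only. Python 3.11.15, numpy 2.4.6, pandas 2.3.3, scipy 1.17.1 and R 4.3.3 were used.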

Additional observations from a re-analysis of the deposited data

How the results depend on the processing

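The calls of Casq2, Atp2a1 and Pvalb were the same genes under all 12 alternative settings. The 5 scalings each add 1 constant between 0.06 and 0.15 to every log2 value, so no member could change sign, the negative value nearest to 0 being -0.50 (Ryr1). Over all genes the counts of upregulated and downregulated genes were 285 and 265, against 137 and 129 with EV above 100 and 454 and 442 with CPM in place of FPKM. The median of the fast sarcomere genes, -0.44, was -0.34 with TMM, -0.33 with the median of ratios, -0.32 with the upper quartile, -0.38 without the 50 genes with the most counts and -0.29 with scaling to the pan-fibre genes. The median of the pan-fibre genes, -0.18, was -0.075 with TMM, -0.067 with the median of ratios, -0.060 with the upper quartile and -0.11 without those 50 genes. These differences are the shift that each scaling adds. The median of the further calcium genes, -0.04, was between 0.02 and 0.11 under the 5 scalings, so its sign is not fixed. With the length of the longest transcript the Atp2a1 to Atp2a2 ratio was 23.6 in control skin and 7.28 in stretched skin, since the length of Atp2a2 is then 5674 in place of 6081 bases and that of Atp2a1 stays at 3477. The median of the slow sarcomere genes, 0.28, was 0.54 with at least 20 counts, and that of the members, -0.69, was -0.45 with 1 CPM added. The median of the members without Pln was chosen after seeing the data. No paired analysis was possible because each condition has only 1 library, so that no library could be left out either. Depth limited Pln, Mrln, Ryr2, Ryr3, Myl2 and the heart markers.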
